A study of Mus musculus with 12 samples.

Results

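Fgf21, Gdf15 and Adm2, which encode secreted stress signals, and Klb and Fgfr1, which encode the receptor for FGF21, were followed through the spinal cords of mice with a small deletion in Gars. These 5 genes, of 38924 in the gene tables, were chosen by name, with their levels in ETAQ and WT cords already known from the same libraries. The ETAQ against WT difference of these genes is therefore described below without a test. All 5 were among the 17189 genes kept for testing. Fgf21, Gdf15 and Adm2 passed that filter on low counts only through the ETAQ libraries, so their difference between the genotypes was fixed in part by the filter itself.

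The animals were 6 ETAQ mice, heterozygous for the ETAQ deletion in Gars (genotype label ETAQ+/-), and 6 WT mice (genotype label ETAQ+/+), with 3 females and 3 males of each. All were 8 weeks old, on a mixed B6J;FVB background. Gars encodes glycyl-tRNA synthetase, which joins glycine to its tRNA, and its dominant variants cause an axonal neuropathy. RNA of the whole cord was measured, with all its neurons, glia, vessels and whatever meninges, roots or blood stayed with the tissue. In such a bulk sample, fewer cells of a type and less RNA per cell cannot be told apart. Markers of cord neurons and glia, 12 in number, were detected throughout, with sums of 27304 to 36922 normalised CPM in ETAQ cords and 29210 to 35191 in WT cords. Gars itself stood at 145 ± 5.79 normalised CPM in ETAQ mice and 127 ± 4.95 in WT mice (SD, n = 6 each), but gene counts do not show the deleted allele and so do not check the genotype labels.

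FGF21 is a hormone best known from liver, where fasting and the integrated stress response switch its gene on. It signals through FGFR1, a receptor tyrosine kinase, only on cells that also carry beta-Klotho, the co-receptor made by Klb. GDF15 is a distant member of the TGF-beta family that rises in many stressed tissues and acts on the hindbrain through GFRAL paired with the kinase RET. ADM2, also called intermedin, belongs to the calcitonin peptide family and signals through the receptor CALCRL, whose ligand preference is set by the RAMP proteins. Amino acid shortage and uncharged tRNA activate the kinase GCN2 (gene Eif2ak4), which raises translation of the transcription factor ATF4, and all 3 hormone genes are described as targets of that route in other cell systems.

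The proximal promoters of the 3 hormone genes are shown because ATF4 binds composite elements with the letters TGATGNAA together with C/EBP proteins. The sequences are RefSeq's, on build GRCm38.p6, each running from 250 bases before the start site to 50 bases after it, and the capitals mark each match to TGATGNAA on either strand. The Fgf21 window is chr7:45615441-45615740 on the minus strand, the Gdf15 window (the first of 2 in the table) chr8:70632407-70632706 on the minus strand, and the Adm2 window chr15:89322470-89322769 on the plus strand.
Fgf21: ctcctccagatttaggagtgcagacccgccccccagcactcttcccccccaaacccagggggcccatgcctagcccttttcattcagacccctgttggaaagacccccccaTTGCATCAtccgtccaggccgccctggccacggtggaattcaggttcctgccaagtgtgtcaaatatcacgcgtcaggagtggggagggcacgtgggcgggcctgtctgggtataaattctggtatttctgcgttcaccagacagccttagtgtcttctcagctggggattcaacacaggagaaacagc
Gdf15: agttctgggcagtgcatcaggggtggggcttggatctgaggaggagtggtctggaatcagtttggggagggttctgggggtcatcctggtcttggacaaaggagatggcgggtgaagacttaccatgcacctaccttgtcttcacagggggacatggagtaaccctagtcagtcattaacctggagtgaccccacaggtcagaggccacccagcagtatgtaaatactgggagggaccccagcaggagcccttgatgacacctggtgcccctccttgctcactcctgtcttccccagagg
Adm2: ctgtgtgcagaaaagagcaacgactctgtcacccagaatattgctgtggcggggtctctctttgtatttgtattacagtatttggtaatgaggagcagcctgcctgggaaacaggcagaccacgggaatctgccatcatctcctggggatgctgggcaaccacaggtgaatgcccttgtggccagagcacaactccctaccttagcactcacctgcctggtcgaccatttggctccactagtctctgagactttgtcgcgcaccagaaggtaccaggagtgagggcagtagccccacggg
The Fgf21 window held 1 match, which reads TGATGCAA on the opposite strand and whose first base in the printed strand lies 139 bases before the start site. Neither Gdf15 window, nor the Adm2 or Klb window, held one, and Fgfr1 had no entry. The same letters occur in 3.97% of all 32851 promoters of the table and in 2.36% of those of tested genes. A match is a run of letters and not a measured binding site, and its absence says nothing about binding elsewhere.

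Fgf21 RNA was counted 261, 200, 222, 174, 212 and 195 times in ETAQ mice 1, 5, 6, 8, 9 and 11, against 0, 1, 1, 0, 3 and 1 times in WT mice 2, 3, 4, 7, 10 and 12. Every ETAQ cord held at least 174 counts, and no WT cord held more than 3. On the normalised scale (CPM, counts scaled to the total of the tested genes and corrected by TMM factors), Fgf21 averaged 7.25 ± 0.806 CPM in ETAQ mice and 0.0314 ± 0.0339 CPM in WT mice (SD, n = 6 each). The log2 fold change was 7.66 ± 0.28 (SE) in edgeR and 7.84 ± 0.60 (SE) in DESeq2. With so few WT counts, the edgeR standard error understates the uncertainty. The pooled counts, 1264 in ETAQ and 6 in WT, gave a 227-fold ratio with a 95% exact counting interval of 104 to 621. The size of this fold rests on a handful of WT reads: without WT mouse 10, which held 3 of the 6, the log2 fold change was 8.29. Fgf21 (ENSMUSG00000030827) lies on chromosome 7 from 45613886 to 45615490, minus strand, in the GENCODE M21 annotation of GRCm38.

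Adm2 RNA was counted 29, 14, 22, 9, 14 and 12 times in ETAQ mice 1, 5, 6, 8, 9 and 11, and 0 times in each of the 6 WT mice. With all WT libraries at 0, only a lower bound can be given: taking 3 counts over the whole WT group as the most that a count of 0 permits, the pooled ETAQ level was at least 36.0-fold higher. Adm2 averaged 0.562 ± 0.201 normalised CPM in ETAQ mice (SD, n = 6). The gene (ENSMUSG00000054136) lies on chromosome 15 from 89322720 to 89324731, plus strand.

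Gdf15 RNA was counted 25, 13, 20, 9, 22 and 11 times in ETAQ mice 1, 5, 6, 8, 9 and 11, against 3, 2, 1, 2, 0 and 0 times in WT mice 2, 3, 4, 7, 10 and 12. The groups did not overlap, but both stood near the lower end of what these libraries resolve. Gdf15 averaged 0.562 ± 0.173 normalised CPM in ETAQ mice and 0.0446 ± 0.0417 in WT mice (SD, n = 6 each). Its log2 fold change was 3.61 ± 0.49 (SE) in edgeR and 3.74 ± 0.64 (SE) in DESeq2. The pooled counts of 100 in ETAQ and 8 in WT gave a 13.5-fold ratio with a counting interval of 6.59 to 32.1. Gdf15 (ENSMUSG00000038508) lies on chromosome 8 from 70629393 to 70632456, minus strand.

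The receptor genes showed no such difference. Klb, the co-receptor gene, was counted 21, 10, 7, 8, 15 and 14 times in ETAQ mice 1, 5, 6, 8, 9 and 11, against 8, 12, 17, 19, 19 and 10 times in WT mice 2, 3, 4, 7, 10 and 12. The groups overlapped throughout, at 0.424 ± 0.143 normalised CPM in ETAQ mice and 0.455 ± 0.157 in WT mice (SD, n = 6 each). Its log2 fold change was -0.09 ± 0.28 (SE), and the pooled ratio of 0.952 had a counting interval of 0.689 to 1.31. Klb lies on chromosome 5 from 65348314 to 65384007, plus strand.

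Fgfr1, the kinase of the receptor pair, stood at 139 ± 5.27 normalised CPM in ETAQ mice and 139 ± 3.35 in WT mice (SD, n = 6 each), with a log2 fold change of 0.00 ± 0.03 (SE). Its lowest and highest values were 130.2 and 145 in ETAQ mice, against 135 and 144 in WT mice. Fgfr1 lies on chromosome 8 from 25513654 to 25575718, plus strand, and 1.66% of its exon bases lie opposite the gene Gm16159.

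**Figure D1:**
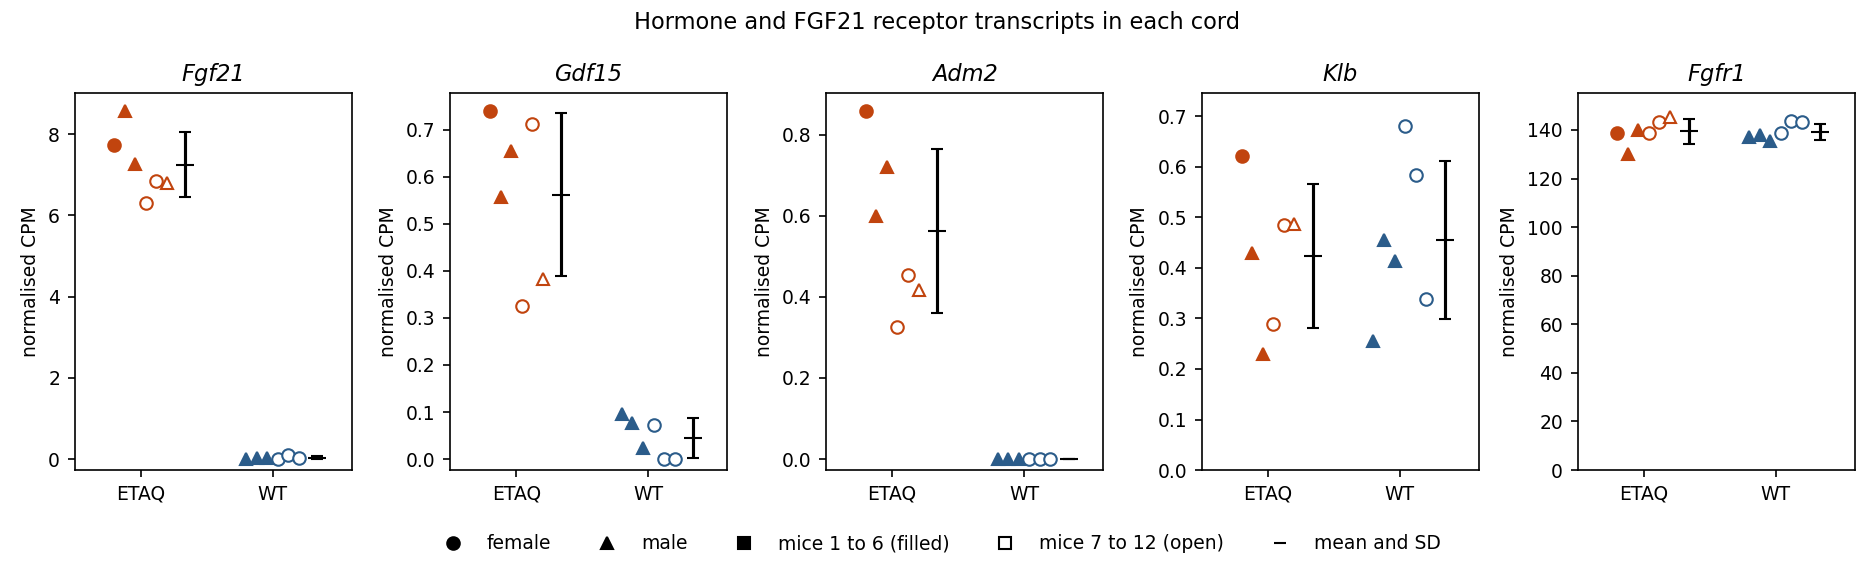
Normalised CPM of each gene in each cord, on linear axes of different range, ETAQ mice left and WT mice right. Points are mice, with shape giving sex and filling giving the set of libraries, and black marks give the mean and SD of 6 mice. Fgf21 lies between 6.30 and 8.57 in ETAQ mice and at or below 0.0921 in WT mice, while the 2 receptor genes overlap.

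Over all tested genes, 330 (1.92%) were called between ETAQ and WT mice by edgeR's quasi-likelihood test at a Benjamini-Hochberg adjusted p under 0.05, 100 (0.582%) higher and 230 (1.34%) lower in ETAQ. Since the 5 genes were named for this contrast, no test is given for them. For 2.01% of tested genes the genotypes were fully separated, mouse by mouse, with ETAQ higher for 0.657%. Fgf21, Gdf15 and Adm2 were separated in that way, which their choice fixes in part and from which nothing is read. The called shares (1.92% in all, 0.582% higher, 1.34% lower) are the background for every count of called genes given for a list.

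Set on the length-corrected TPM scale, the hormone transcripts were very unequal. Fgf21 lay between 15.71 and 19.61 TPM in ETAQ mice, against 0 to 0.22 TPM in WT mice. Gdf15 lay between 0.44 and 1.02 TPM in ETAQ mice, against 0 to 0.13 TPM in WT mice. Adm2 lay between 0.70 and 1.83 TPM in ETAQ mice and was listed at 0 in WT mice. In ETAQ cords the Fgf21 level was a median of 22.9 times that of Gdf15 (range 17.5 to 35.7) and 17.1 times that of Adm2 (range 10.4 to 22.4), so Fgf21 stood above both in all 6 ETAQ mice.

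The 2 parts of the FGF21 receptor also differed widely in level. Fgfr1 lay between 62.44 and 75.70 TPM in ETAQ mice and between 61.29 and 69.57 TPM in WT mice. Klb, which decides which cells respond to FGF21, lay between 0.12 and 0.33 TPM in ETAQ mice and between 0.12 and 0.36 TPM in WT mice. Within ETAQ cords Fgfr1 was a median of 290 times Klb (range 204 to 584) and 4.15 times Fgf21 (range 3.18 to 4.52). Whether the few Klb reads come from a small group of cells or are spread thinly cannot be told from whole cord.

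**Figure D2:**
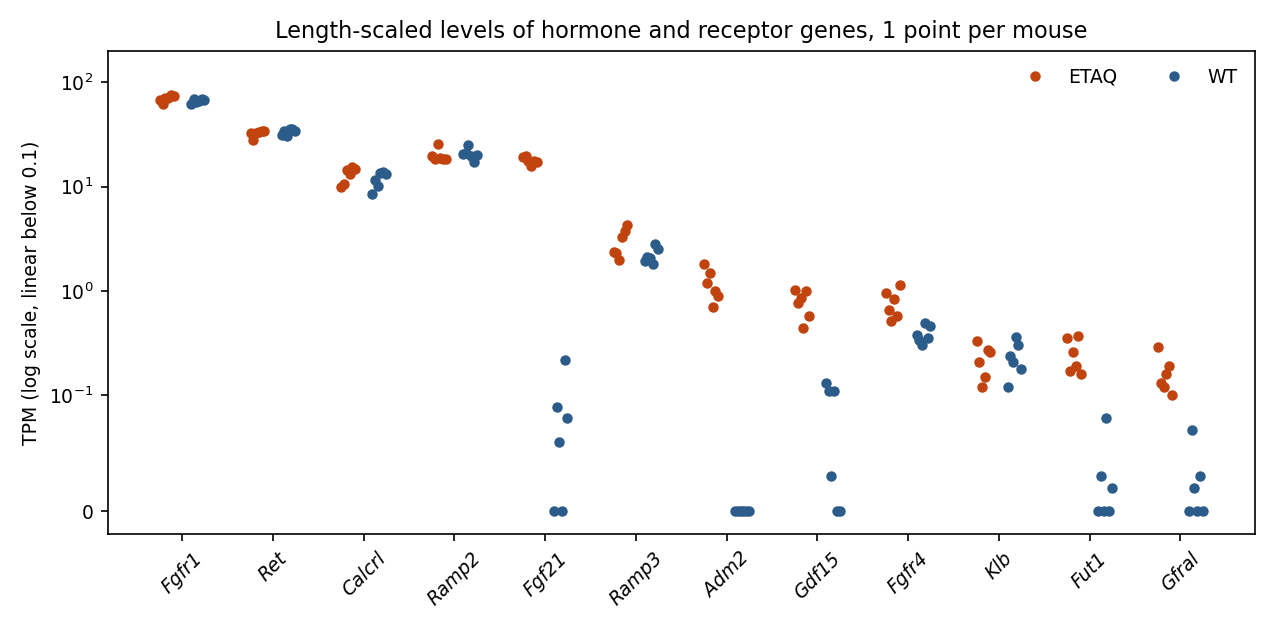
Length-corrected levels (TPM, log axis that is linear below 0.1) of the hormone genes and of receptor genes, 1 point per mouse, ETAQ left of WT for each gene. Fgf21 in ETAQ mice (15.71 to 19.61) lies among well-expressed receptor genes, whereas Klb, Gfral and Fut1 lie below 1 in every mouse.

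Among the 6 ETAQ mice Fgf21 was the steadiest of the hormone transcripts. Its coefficient of variation was 11.1%, against the 6.94% that counting error alone gives at its depth, and its highest mouse stood 1.36 times above its lowest. Gdf15 varied by 30.9% (24.7% from counting) and Adm2 by 35.8% (24.7% from counting), so much of their spread is of the size that low counts bring. The same measure was 33.9% for Klb (28.5% from counting) and 3.78% for Fgfr1 (1.58% from counting).

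ETAQ females and ETAQ males were compared within the same fit. Fgf21 averaged 6.96 ± 0.718 normalised CPM in ETAQ females and 7.54 ± 0.923 in ETAQ males (SD, n = 3 each), a log2 difference of -0.11 ± 0.21 (SE; edgeR adjusted p = 0.992). Gdf15 differed by 0.17 ± 0.47 (adjusted p = 0.997), Adm2 by -0.07 ± 0.45 (adjusted p = 0.998), Klb by 0.31 ± 0.42 (adjusted p = 0.986) and Fgfr1 by 0.02 ± 0.04 (adjusted p = 0.996). None of the 5 was among the 9 genes (0.0524%) that differed between ETAQ females and ETAQ males. For the low genes the standard errors leave room for a difference of well over 1.5-fold. ETAQ females and ETAQ males were unevenly spread over the sets of libraries described below. The fit held no term for set, so these differences mix sex with set in part.

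The test of whether the genotype difference itself varied with sex called no gene (0.0%) in edgeR. DESeq2 called 3, none of them among the 5, and 852 genes had an edgeR p under 0.05 before adjustment. The female minus male difference in the log2 fold change was -1.10 ± 0.88 for Fgf21 (SE; adjusted p = 0.923), 1.48 ± 1.15 for Gdf15 (adjusted p = 0.907), -0.20 ± 0.58 for Klb (adjusted p = 0.984) and -0.03 ± 0.06 for Fgfr1 (adjusted p = 0.967). With 1 mouse left out, it lay between -1.60 and 0.07 for Fgf21, the highest without WT mouse 10, between 0.92 and 4.17 for Gdf15, the highest without WT mouse 7, and between -0.48 and 0.04 for Klb. For Adm2 it could not be estimated, since both WT groups stood at 0. With so few WT counts, the standard errors of Fgf21 and Gdf15 here may be too small. WT males and WT females came from different sets of libraries, described below, and the edgeR fit held no term for set. The WT part of this comparison is therefore also a comparison of sets. The test cannot tell sex from set, and no conclusion on sex is drawn from it.

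The libraries of mice 1 to 6 stand apart from those of mice 7 to 12: 1356 genes (7.89%) differed between the sets with sex and genotype in the fit, although without ETAQ mouse 1 the count was 163 and without ETAQ mouse 11 it was 278. Each set holds 3 mice of each genotype, but all 3 WT males are in the first and all 3 WT females in the second, so sex and set cannot be told apart among WT mice. Red cell markers gave sums of 2564 to 3695 normalised CPM in ETAQ mice of the first set and of 303 to 389 in those of the second, and their part in the hormone values was not tested. Within each set every ETAQ mouse stood above every WT mouse for all 3 hormone transcripts. Fgf21 lay between 7.27 and 8.57 normalised CPM in ETAQ mice 1, 5 and 6 and between 6.30 and 6.85 in ETAQ mice 8, 9 and 11. Adm2 likewise lay higher in the first 3 (0.600 to 0.858) than in the other 3 (0.326 to 0.453), and Gdf15 overlapped (0.557 to 0.740 and 0.326 to 0.711). Such a separation of the ETAQ mice by set was found for 29.5% of tested genes.

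With both genotypes in the fit, the set difference was not called for any of the 5 genes. It was 0.20 ± 0.18 on the log2 scale for Fgf21 (SE; edgeR adjusted p = 0.585), 0.67 ± 0.43 for Gdf15 (adjusted p = 0.407), 0.91 ± 0.37 for Adm2 (adjusted p = 0.185), 0.01 ± 0.36 for Klb (adjusted p = 0.990) and -0.06 ± 0.03 for Fgfr1 (adjusted p = 0.302). Within mice 1 to 6 the log2 fold change of ETAQ over WT was 8.34 for Fgf21 and 3.20 for Gdf15, and within mice 7 to 12 it was 7.09 for Fgf21 and 4.29 for Gdf15. For Klb it was 0.05 within mice 1 to 6 and -0.22 within mice 7 to 12, and for Fgfr1 it was -0.00 within mice 1 to 6 and 0.01 within mice 7 to 12. Of tested genes 0.803% were called within mice 1 to 6 and 0.937% within mice 7 to 12. The test of the difference between the sets called no gene in edgeR (683 at an unadjusted p under 0.05, 3 by DESeq2), with 1.26 ± 0.92 for Fgf21 (adjusted p = 0.994) and -1.09 ± 1.16 for Gdf15 (adjusted p = 0.994). With 1 mouse left out, it lay between 0.09 and 1.76 for Fgf21, the lowest without WT mouse 10, and between -3.78 and -0.53 for Gdf15, the lowest without WT mouse 7. The standard errors of these 2 genes may be too small, as their WT counts are few. Because sex and set coincide among WT mice, this test cannot tell a dependence on set from a dependence on sex.

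Tissues known to make FGF21 were looked for among the libraries. The summed level of 8 liver markers, such as albumin (Alb), ranged from 0.557 to 6.98 normalised CPM in ETAQ mice and from 0.509 to 3.92 in WT mice. For 10 skeletal muscle markers the sums ranged from 3.03 to 136 in ETAQ mice and from 3.12 to 1026 in WT mice. For 8 adipose markers they ranged from 0.129 to 24.3 in ETAQ mice and from 0.0358 to 9.11 in WT mice. Only 4 of the 8 liver markers and 3 of the 8 adipose markers passed the filter and were tested, with all 10 muscle markers. None of those tested was called between the genotypes. Their median log2 fold change was -0.08 for liver, -0.57 for muscle and 1.36 for adipose. No marker of these 3 lists was at 0 in all 12 libraries. In mice 7 to 12 the muscle sums were 3.03 to 4.17 in ETAQ and 3.12 to 3.59 in WT, where Fgf21 was 6.30 to 6.85 in ETAQ and at most 0.0921 in WT. The part of these tissues in the hormone values was not tested.

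Of 8 tested motor neuron markers 4 were lower and 0 higher in ETAQ mice, beside 1.34% of all tested genes called lower. They were Chodl (log2 fold change -1.84), the neurofilament gene Nefh (-0.54), the intermediate filament gene Prph (-0.84) and Chat (-0.64). Chat, which makes the acetylcholine-synthesising enzyme, stood at 15.8 ± 0.978 normalised CPM in ETAQ mice and 24.6 ± 1.12 in WT mice (SD, n = 6 each; edgeR adjusted p = 2.61e-06). Summed over the list, motor neuron markers ranged from 872 to 1006 in ETAQ and from 1294 to 1495 in WT. Of 6 tested sensory ganglion markers 2 were higher, the ATP-gated channel gene P2rx3 (2.87) and Avil (2.35), and 2 were lower, Prph and Calca (-2.06), beside 1.92% of all tested genes called. Their sums ranged from 49.2 to 61.3 in ETAQ and from 74.1 to 88.1 in WT. Calca alone ranged from 4.16 to 6.92 in ETAQ and from 16.2 to 28.3 in WT. The sum therefore does not stand for all genes of the list, and Prph and Isl1 are in the motor neuron list too. Of 7 macrophage and microglia markers and 7 choroid and ependymal markers tested, 0 were called. The part of these cell types in the hormone values was not tested.

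Beyond Fgfr1 and Klb, 1 of 5 other FGF receptor and Klotho genes was called, Fgfr4. Fgfr4, a receptor that also pairs with beta-Klotho, had 48, 30, 29, 41, 31 and 43 counts in ETAQ mice 1, 5, 6, 8, 9 and 11, against 23, 16, 23, 25, 21 and 25 in WT mice 2, 3, 4, 7, 10 and 12. It averaged 1.27 ± 0.243 normalised CPM in ETAQ mice and 0.715 ± 0.135 in WT mice (SD, n = 6 each), without overlap, and rose by 0.84 ± 0.18 on the log2 scale (SE; edgeR adjusted p = 0.0233). That call is fragile: it was lost without WT mouse 3, 4 or 10 or ETAQ mouse 5, 8 or 11 (adjusted p from 0.0568 to 0.0735), within either set and in limma on TPM. Fgfr2 (-0.05, adjusted p = 0.835), Fgfr3 (-0.10, adjusted p = 0.357), the decoy-like Fgfrl1 (0.03, adjusted p = 0.926) and Kl, the co-receptor for FGF23 (0.07, adjusted p = 0.836), did not pass the test.

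Genes of the FGF receptor signalling pathway gave no call at the RNA level. None of 21 tested adaptors, feedback inhibitors and target genes of the pathway was called. In edgeR 0 of them had an unadjusted p under 0.05, beside 1874 of the 17189 tested genes. Their median log2 fold change was -0.01, beside 0.00 over all tested genes. The smallest p values belonged to Spred2 (-0.06 ± 0.03, adjusted p = 0.541) and Spry2 (-0.10 ± 0.05, adjusted p = 0.594), both feedback inhibitors. Of 13 other FGF ligand genes tested, 1 was called: Fgf1, a broad FGF receptor ligand, fell by 0.29 on the log2 scale (SE 0.05; adjusted p = 0.00394), at 165 ± 15.4 normalised CPM in ETAQ mice and 202 ± 11.1 in WT mice (SD, n = 6 each). The other endocrine FGF genes were near the floor: Fgf15 had 10 counts over the ETAQ group and 5 over the WT group, and Fgf23 had 43 over the ETAQ group and 48 over the WT group.

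The receptor for GDF15 gave a signal at the edge of detection. Gfral was counted 10, 3, 4, 4, 6 and 3 times in ETAQ mice 1, 5, 6, 8, 9 and 11, against 0, 2, 1, 0, 1 and 0 times in WT mice 2, 3, 4, 7, 10 and 12. The groups did not overlap, and the pooled counts of 30 in ETAQ and 4 in WT gave an 8.09-fold ratio with a counting interval of 2.85 to 31.6. The gene did not pass the filter on low counts. In a fit of all genes without that filter its log2 fold change was 2.73 (edgeR adjusted p = 0.0487), which was lost when any 1 mouse other than WT mouse 3 was left out (adjusted p from 0.0557 to 0.129) and within either set. Ret, its signalling partner, stood at 129 ± 3.96 normalised CPM in ETAQ mice and 138 ± 5.63 in WT mice (SD, n = 6 each) and was not called (adjusted p = 0.157).

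Of the related co-receptors for GDNF-family ligands, Gfra1 fell by 0.23 on the log2 scale (SE 0.04; edgeR adjusted p = 0.00174), at 79.2 ± 2.44 normalised CPM in ETAQ mice and 93.3 ± 5.46 in WT mice (SD, n = 6 each). It was not called within mice 1 to 6 (adjusted p = 0.0822) or by limma on TPM (adjusted p = 0.281 with a pseudocount of 0.1), and 7.60% of its exon bases lie opposite another gene. Gfra2 (adjusted p = 0.703) and Gfra4 (adjusted p = 0.725) did not pass the test. Gfra3, with 35 counts in the ETAQ group and 44 in the WT group, was not tested. None of 21 other TGF-beta family ligand genes was called. The 2 with an unadjusted p under 0.05 were Inhbb, an activin subunit (0.25 ± 0.07, adjusted p = 0.0865), and Tgfb2 (0.15 ± 0.07, adjusted p = 0.451).

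The receptor genes for ADM2 were expressed, and none of 6 tested was called, with 2 at an unadjusted p under 0.05. Calcrl, the receptor itself, stood at 20.3 ± 1.24 normalised CPM in ETAQ mice and 17.7 ± 2.89 in WT mice (SD, n = 6 each; log2 fold change 0.20 ± 0.08, edgeR adjusted p = 0.318). Ramp3, which pairs with Calcrl to form an adrenomedullin receptor, had 0.38 ± 0.19 (adjusted p = 0.479), and Ramp1, which makes it a CGRP receptor, had -0.03 ± 0.06 (adjusted p = 0.933). Ramp2 had -0.15 ± 0.10 (adjusted p = 0.663), but 29.5% of its 75-base sequences also occur in transcripts of other genes, so its counts are uncertain. Calcr, the calcitonin receptor (-0.32 ± 0.27, adjusted p = 0.761), and Crcp, a CGRP receptor component (-0.11 ± 0.05, adjusted p = 0.408), completed the list.

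Of 5 other tested peptide genes listed with Adm2, 2 fell and 0 rose. Calca, which encodes CGRP, fell by 2.06 on the log2 scale (SE 0.16; edgeR adjusted p = 1.68e-05), at 5.14 ± 1.01 normalised CPM in ETAQ mice and 21.5 ± 4.26 in WT mice (SD, n = 6 each). Calcb, a second CGRP gene, fell by 1.11 (SE 0.16; adjusted p = 0.000868), at 2.33 ± 0.565 in ETAQ mice and 5.04 ± 0.796 in WT mice. Adm, which encodes adrenomedullin, lay between 1.76 and 2.68 in ETAQ mice and between 1.53 and 2.60 in WT mice and was not called (adjusted p = 0.901). Neither Calca nor Calcb overlapped between the genotypes, and the Adm2 counts lay in the other direction.

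**Figure D3:**
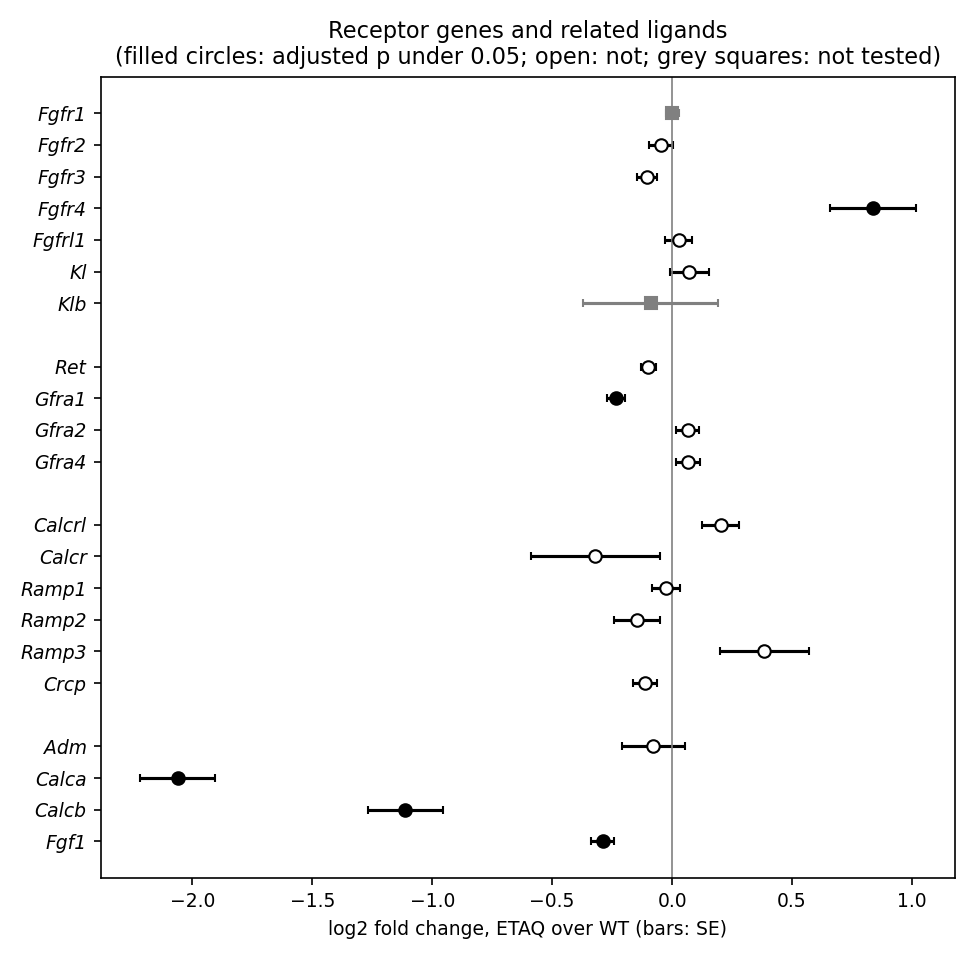
Log2 fold change of ETAQ over WT with its standard error for receptor genes of the 3 hormones (upper 3 blocks) and related ligand genes (lowest block). Filled circles passed an edgeR adjusted p of 0.05, open circles did not, and the grey squares for Fgfr1 and Klb carry no test. Fgfr4 lies to the right at 0.84, while Calca and Calcb lie furthest left at -2.06 and -1.11.

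Upstream of the hormone genes, 2 of 16 tested stress regulators were called, both higher and both transcription factors, beside 0.582% of all tested genes called higher. In edgeR 7 of the 16 had an unadjusted p under 0.05, beside 1874 of the 17189 tested genes. The median log2 fold change over the 16 was 0.14, beside 0.00 over all tested genes. Atf4 stood at 99.3 ± 4.67 normalised CPM in ETAQ mice and 74.7 ± 5.49 in WT mice (SD, n = 6 each), without overlap, and rose by 0.41 ± 0.04 on the log2 scale (SE; edgeR adjusted p = 1.43e-05). Atf5 rose by 0.44 ± 0.10 (adjusted p = 0.0324), at 26.8 ± 3.98 in ETAQ mice and 19.7 ± 2.65 in WT mice, a call lost when any of 9 of the 12 mice was left out. Ddit3 (0.23, adjusted p = 0.288), Trib3 (0.40, adjusted p = 0.541) and the kinase gene Eif2ak4 (-0.03, adjusted p = 0.881) did not pass the test. Atf4 is regulated mainly through translation, which RNA counts do not show.

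The factors that drive Fgf21 in liver and fat, such as PPAR-alpha and its partners, gave no call among 15 tested (2 at an unadjusted p under 0.05). Ppara itself was at 2.68 ± 0.440 normalised CPM in ETAQ mice and 2.69 ± 0.296 in WT mice (SD, n = 6 each). The smallest p belonged to Mlxipl, a carbohydrate-responsive factor (0.36 ± 0.12, edgeR adjusted p = 0.224), followed by Esrrg (0.07 ± 0.03, adjusted p = 0.439). Of 15 genes of fatty acid oxidation and ketone metabolism, processes that FGF21 is known to promote in liver, 1 was called: Cpt1a, the carnitine palmitoyltransferase, fell by 0.24 (SE 0.06; adjusted p = 0.0387), a call lost when any of 9 of the 12 mice was left out. Of 21 other secreted stress factors tested, 1 was called: Fstl1, a follistatin-like glycoprotein, fell by 0.22 (SE 0.04; adjusted p = 0.00305), lost in limma on TPM.

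Of 34 genes whose start lies within 100 kb of Fgf21, Gdf15 or Adm2, 28 passed the filter on low counts. Fut1 is described below without a test, and no other neighbour was called. Fut1, an alpha-1,2-fucosyltransferase gene, begins 1799 bp from Fgf21 on the opposite strand (chromosome 7, 45617289 to 45621059). Fut1 was counted 16, 6, 11, 7, 15 and 6 times in ETAQ mice 1, 5, 6, 8, 9 and 11, against 0, 1, 0, 3, 0 and 1 times in WT mice 2, 3, 4, 7, 10 and 12. The groups did not overlap, and the pooled counts of 61 in ETAQ and 5 in WT gave a 13.2-fold ratio with a counting interval of 5.34 to 42.0. Like the hormone genes, it passed the filter only through the ETAQ libraries, so a difference was in part fixed by the filter, and its values are given as a description with no test.

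The level of Fut1 was far below that of its neighbour, with Fgf21 a median of 74.9 times higher in TPM in ETAQ mice (range 47.3 to 115). No exon of the 2 genes overlaps in the annotation, and the RefSeq Fut1 promoter window (chr7:45617356-45617655) held no TGATGNAA match. That window rests on another start site and begins inside the gene as GENCODE places it. It does not cover the bases before the GENCODE start at 45617289. The next gene out, Izumo1, had 29 counts in the ETAQ group and 20 in the WT group and was not tested. Bcat2, which degrades branched-chain amino acids (-0.01, adjusted p = 0.989), and Ppp1r15a, a feedback regulator of the integrated stress response (0.17, adjusted p = 0.671), both near Fgf21, did not pass the test. Neither did any of the 9 tested neighbours of Gdf15 or the 7 of Adm2.

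**Figure D4:**
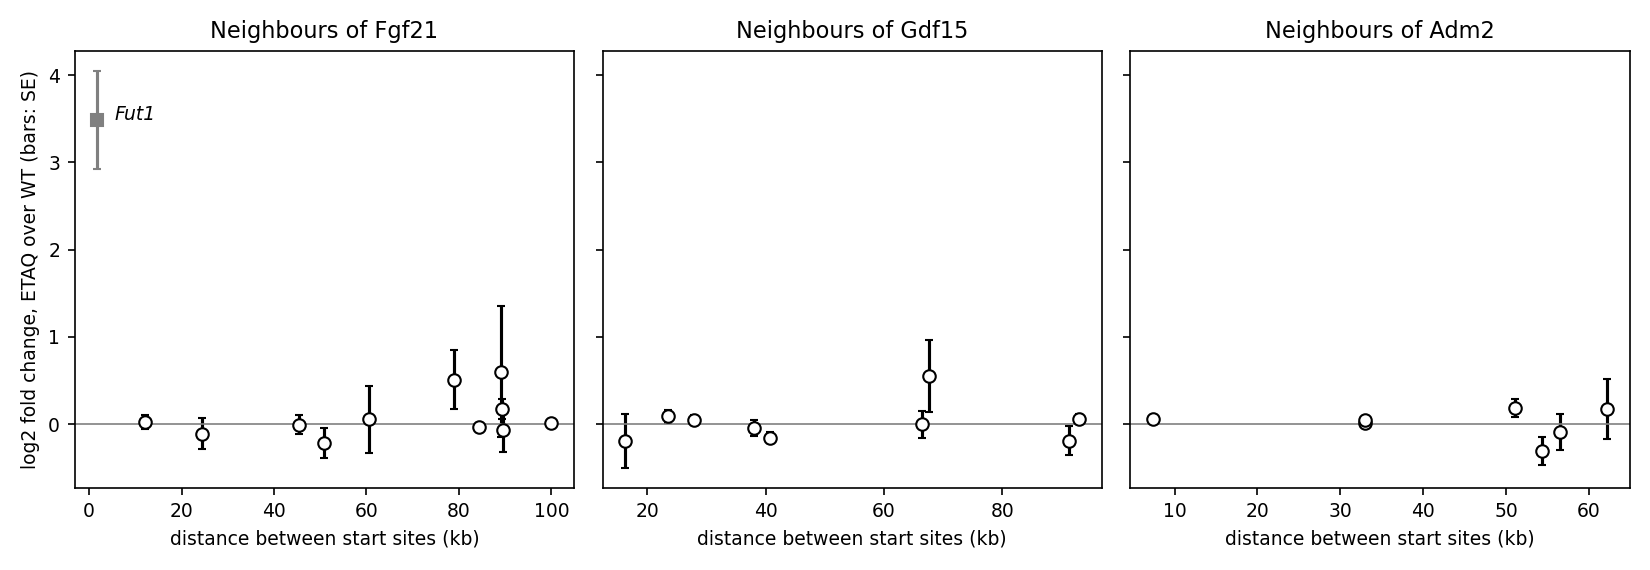
Log2 fold change of ETAQ over WT, with its standard error, for tested genes against the distance of their start from that of Fgf21, Gdf15 or Adm2. The grey square is Fut1 (3.49), given without a test, and the open circles are neighbours that did not pass the test.

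Over all 12 libraries the gene profiles most like that of Fgf21, by Pearson's r on log2(normalised CPM + 0.1), were those of Cdsn (0.986), B4galnt2 (0.982), Adm2 (0.980), P2rx3 (0.980), Slc7a1 (0.979), Gm3411 (0.978), Cars (0.977) and Stbd1 (0.977). These coefficients mostly restate the split between the genotypes, which all 8 genes share with Fgf21, and the points share library and depth. Cdsn, known as an adhesion protein of skin, stood at 4.09 ± 0.534 normalised CPM in ETAQ mice and 0.160 ± 0.0631 in WT mice (SD, n = 6 each). Slc7a1, a transporter of cationic amino acids, stood at 113 ± 3.53 in ETAQ mice and 77.4 ± 4.07 in WT mice, and Cars, the cysteinyl-tRNA synthetase gene, at 52.0 ± 1.07 in ETAQ mice and 39.1 ± 1.38 in WT mice. The counts of Gm3411 are uncertain, since 77.3% of its 75-base sequences also occur in other genes.

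Within the ETAQ mice, the hormone transcripts were compared with each other and with Atf4 and Chat, 9 relations in all. Adm2 and Gdf15 gave the highest coefficient (Pearson r = 0.79, exact permutation p = 0.0667, adjusted p = 0.488; Spearman rho = 0.829, exact p = 0.0583, adjusted p = 0.263; n = 6), which was 0.47 without the 2 mice farthest from the median. Adm2 and Fgf21 gave r = 0.73 (exact permutation p = 0.108, adjusted p = 0.488; rho = 0.829, exact p = 0.0583, adjusted p = 0.263; n = 6), or 0.55 without those 2 mice. Gdf15 and Fgf21 gave r = 0.55 (exact permutation p = 0.256, adjusted p = 0.490; rho = 0.600, exact p = 0.242, adjusted p = 0.725; n = 6), and r turned to -0.72 without 2 mice. None of the 9 passed the threshold, and 3 mice in each set are too few for a coefficient within sets.

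The mice with high and low values were partly the same. ETAQ mouse 8 had the lowest value of all 3 hormone transcripts, at 6.30 normalised CPM for Fgf21, 0.326 for Gdf15 and 0.326 for Adm2. ETAQ mouse 1 had the highest Gdf15 (0.740) and Adm2 (0.858), and ETAQ mouse 5 the highest Fgf21 (8.57). Atf4 gave r between 0.25 and 0.55 with the 3 hormones (exact permutation p from 0.228 to 0.611, n = 6), and Chat between 0.02 and 0.54 (exact permutation p from 0.272 to 0.961, n = 6).

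**Figure D5:**
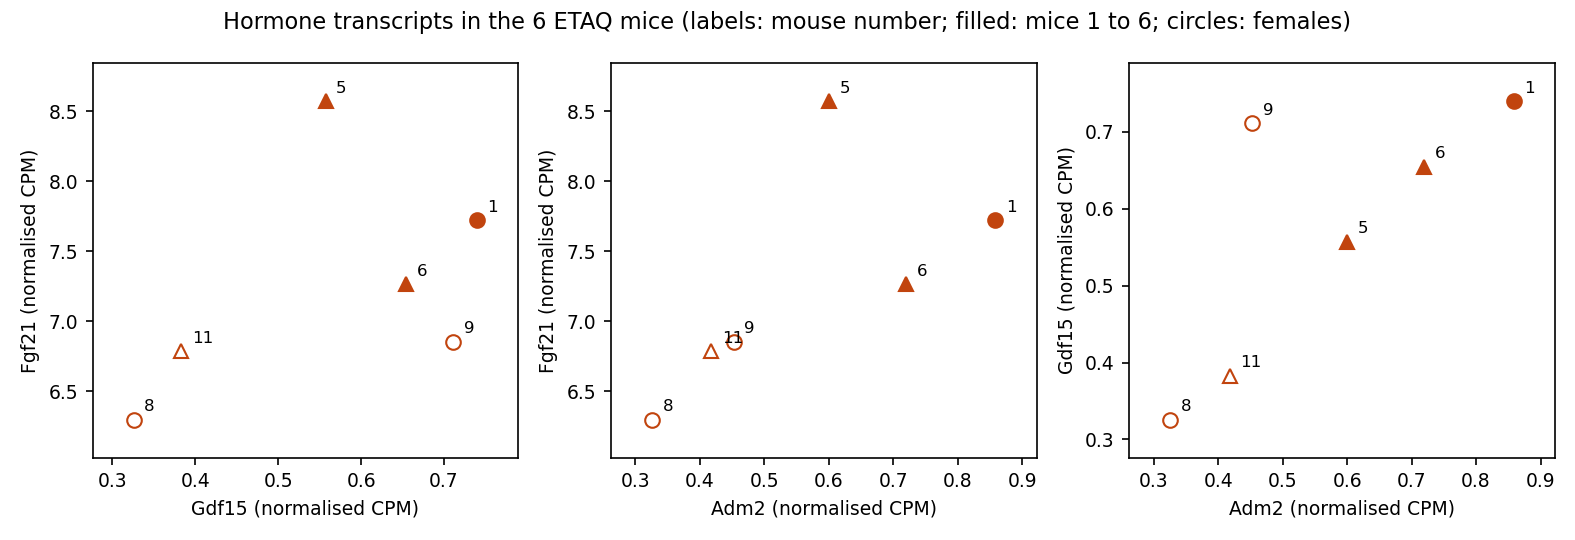
Normalised CPM of the 3 hormone transcripts against each other in the 6 ETAQ mice, labelled by mouse number, with circles for females, triangles for males, filled points for mice 1 to 6 and open points for mice 7 to 12. Mouse 8 lies lowest in each panel, and the filled points lie above the open ones for Fgf21 (7.27 to 8.57 against 6.30 to 6.85).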

How the data were processed

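RNA from whole spinal cord of 12 mice was purified from TRIzol lysates on miRNeasy columns with a DNase step, selected for polyA and sequenced as 75 bp pairs on a NextSeq, per the labels' protocols. Both the stranded mRNA-Seq and the HyperPrep kits of KAPA are listed there, with no library assigned to either. The submitters' processing notes name Bowtie2 2.2.0 and RSEM 1.2.12, and RSEM can split reads among genes of near-identical sequence. Build, annotation and strand setting are not given in the sources used here. Expected counts, without normalisation, were deposited by the authors, and 15.4% of the values were not whole. The same deposited tables hold TPM, scaled for length and library, per the file headers. The FPKM in the deposited tables, per the file headers, were not used.

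Expected counts were rounded and analysed in R 4.3.3. Totals were 23595975 to 41452708 per library, so 3 counts, the limit that a count of 0 allows, equal 0.0724 to 0.127 CPM. Intervals and limits cover counting error only, as no molecular identifiers were used. Genes were kept by filterByExpr on the 4 genotype and sex groups, and edgeR 4.0.16 was fitted to all 12 libraries (TMM, robust quasi-likelihood, sex as covariate, Benjamini-Hochberg over 17189 genes, threshold 0.05, two-sided). Standard errors are the log2 fold change over the square root of F, unless given for DESeq2. Derived in this way, they can be too small for genes with few WT counts. For the genotype effect those of Fgf21 and Gdf15 were 0.28 and 0.49, against 0.60 and 0.64 in DESeq2. Interactions used the 4 groups, or sex, set and genotype. Alternatives were DESeq2 1.42.0, limma 3.58.1 on log2(TPM + 0.1) and log2(TPM + 1), other factors, filters and covariates, each set alone, and leaving out each mouse. The fits were also tested on simulated data, with 50 genes changed at each size. For the genotype effect, 32% of genes changed 1.2-fold were called, 82% at 1.5-fold, 82% at 2-fold and 94% at 4-fold. A gene not called may therefore still differ, also by 2-fold or 4-fold, since not all genes changed that much were called. Correlations used exact permutations of pairings in scipy 1.17.1.

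The genes, lists, sets and tests were chosen with earlier results of these data known. The text names the 5 genes, their receptor genes, up to 6 called genes of each pathway list or otherwise the 2 with the smallest p, Fgf15, Fgf23, Adm, Calca, Calcb, genes near the hormone genes, Atf4, Chat and the 8 profiles most like Fgf21. Ddit3, Trib3, Eif2ak4, Ppara, Alb and the called cell-type markers were named outside that rule, after their values were seen. The unfiltered Gfral alternatives were added after seeing the data. Each library is a separate mouse, per the titles. Positions come from GENCODE M21 (GRCm38), promoters from RefSeq (GRCm38.p6), and 75-base sequences shared between genes from GENCODE M21 transcripts.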

Additional observations from a re-analysis of the deposited data

Results flagged for a closer look

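In each genotype group of 6 mice, the gap between the most extreme mouse and its nearest neighbour was compared with the group's range for the 5 hormone and FGF21 receptor genes and for 12 of the receptor, ligand, regulator and neighbouring genes named with them, 33 groups in all, against Dixon's 95% critical value. Chance passes about 1 in 20 groups, and 2 passed here. Ret was lowest in ETAQ mouse 5, at 121 normalised CPM, with a gap of 0.749 of the range. Fut1 was highest in WT mouse 7, at 0.107 normalised CPM, which is 3 counts, with a gap of 0.646 of the range. None of the 5 hormone and FGF21 receptor genes was among them.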

How the results depend on the processing

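The log2 fold change of Fgf21 was 6.79 and 4.12 in limma on log2(TPM + 0.1) and log2(TPM + 1), 8.34 and 7.09 within mice 1 to 6 and mice 7 to 12, and 7.42 to 8.29 when 1 mouse was left out. Gdf15 gave 2.47 and 0.73 in the 2 limma fits and 4.29 within mice 7 to 12. The fitted value of Adm2, which is no bound, was 6.58 in DESeq2 and 3.62 and 1.10 in limma, where the pseudocount compresses low genes by construction. Klb lay between -0.22 and 0.05 and Fgfr1 between -0.02 and 0.07 over all 21 alternatives. The count of genes called by genotype was 506 in DESeq2, 160 and 162 in limma, and 138 and 161 within the sets. Interactions with sex and with set had 3 calls each in DESeq2 and 0 to 2 and 0 to 3 with 1 mouse left out. The set effect had 163 to 1560. Apart from Fut1, which is given without a test, no neighbour was called over all mice, within mice 1 to 6 or within mice 7 to 12. The stricter motif TGATGCAA was in 0.895% of all promoters. The cause of these changes was otherwise not tested. No paired analysis was possible because the mouse numbers run from 1 to 12 and none occurs in both genotypes. Depth limits Gdf15, Adm2, Klb, Gfral and Fut1, all under 30 counts per library.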

Other observations

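The letters TGATGNAA, present in the Fgf21 window, were counted in the windows of other genes as a description with no test. They occurred in 16.3% of the 92 promoter windows of genes called higher in ETAQ mice and in 2.15% of the 233 windows of genes called lower, beside 2.36% over tested genes. By gene, 15 of the 70 higher genes with a window held a match, and 11 held TGATGCAA. Fgf21, whose window prompted the count, is among both the 15 and the 11. The genes called higher also include Gdf15, Adm2 and Fut1, whose difference was fixed in part by choice or filter. The others of the 15, with their log2 fold changes, were Avil (2.35), Serpinf1 (0.80), Chac1 (0.73), Pycr1 (0.70), Pdzd7 (0.42), Pck2 (0.30), Slc1a4 (0.29), Asns (0.27), Iars (0.22), Vldlr (0.20), Gars (0.19), Arhgef2 (0.17), Aars (0.16) and Tars (0.13). For comparison, TGACGTCA was in 0 of the 92 windows of higher genes and in 2.78% of those of tested genes. These genes were named after their windows were read. A part of ATF4 in these differences was not tested, and nothing is concluded on it from these shares.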
